A study of Mus musculus with 24 samples.

Results

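Kidneys of mice with myocardial infarction (MI), pooled over 5d and 28d post-MI, were compared with kidneys of sham-operated mice, to describe which genes were shifted in the same direction at both times. The comparison held 22 of the 24 kidneys in the series, 8 from sham mice, 8 from 5d and 6 from 28d post-MI. The remaining kidneys, 1 from each MI time, were left out because their count columns share a name and could not be assigned. All mice were male C57BL/6J wild-type animals of 8 to 11 weeks at surgery, with no transgene. MI was induced by tying off the left anterior descending (LAD) artery of the heart for good, and sham mice had the same operation without ligation. The sham kidneys were all collected 5d after surgery and were the controls for both times. At 28d, effects of MI therefore cannot be told apart from those of time after surgery and of age.

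After MI the kidney receives less blood flow and more sympathetic, renin and natriuretic peptide signalling, and heart and kidney disease often occur together as cardiorenal syndrome. Most kidney RNA comes from tubule cells, chiefly of the proximal tubule, which reabsorb the filtrate and burn fatty acids. Podocytes, the cells that cover the glomerular capillaries and form the filtration slits, give a small share.

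RNA was measured by Massive Analysis of cDNA Ends (MACE), which reads the 3′ ends of mRNA and counts each molecule once by its unique molecular identifier. Total counts per kidney were between 2280618 and 3786275. Levels are given as normalised counts scaled to a common library size (CPM), and because only 3′ ends were read they are not divided by gene length. The pooled log2 fold change is the mean of the 5d and 28d log2 fold changes against sham, each time weighted equally. A gene was called a differentially expressed gene (DEG) at an adjusted p-value under 0.05 (edgeR's quasi-likelihood test, Benjamini-Hochberg over the 12780 genes tested). Tubule markers were plain in every kidney, with 2196 to 2999 CPM of Slc27a2, a fatty acid transporter of the proximal tubule. Signal from neighbouring tissue was also present. The summed CPM of 9 adrenal steroid genes was 1229 and 1010 in sham kidneys 2 and 6 against 109.96 to 246 in the other 20 kidneys. The summed CPM of 13 adipocyte genes ranged from 632 to 2617 in sham, 342 to 2029 at 5d and 609 to 1423 at 28d post-MI.

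One gene was a DEG of pooled MI against sham. Sema3g, which encodes a secreted class 3 semaphorin made by podocytes and arterial endothelium, rose after MI. No gene fell past the threshold. Of the 12780 genes tested, 0.00782% were called, and 1001 genes (7.83%) had an unadjusted p under 0.05, of which 467 (3.65%) were higher and 534 (4.18%) lower after MI. DESeq2 called 14 genes (0.11%), 4 higher (0.0313%) and 10 lower (0.0782%), and limma's voom called 1 gene. No gene had all 14 MI kidneys above or all 14 below every sham kidney (0%).

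No gene passed the test for a change in the same direction at both times after adjustment (edgeR, the larger of both p-values, 0 of 12780). DESeq2 and voom called none either. Without adjustment 203 genes (1.59%) had a p under 0.05 and the same direction at both times, 84 of them (0.657%) higher and 119 (0.931%) lower. With DESeq2 this count was 177, and with voom 206. Both times were set against the same sham kidneys, so an unusual sham group moves both values together. Taken separately, 9 genes (0.0704%) were called at 5d and 3 (0.0235%) at 28d post-MI.

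Sema3g (ENSMUSG00000021904) lies on the plus strand at chr14:31217860-31230352 (GRCm38, GENCODE M21). Its level was 17.4 CPM in the lowest, 23.9 in the median and 29.2 in the highest sham kidney. The 5d kidneys had 26.9, 42.1 and 53.03 CPM in the same order, and the 28d kidneys 25.6, 33.6 and 45.5 CPM. All 14 MI kidneys were above the sham mean and 12 of them above every sham kidney, 7 of 8 at 5d and 5 of 6 at 28d. The pooled log2 fold change was 0.68 ± 0.11 (SE), with an adjusted p of 0.00629 by edgeR. It was 0.81 at 5d and 0.55 at 28d, and the difference between both times was −0.26 ± 0.12 (SE), with an unadjusted p of 0.042 and an adjusted p of 0.534.

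The call for Sema3g held in all 22 fits that left out 1 kidney each, with log2 fold changes from 0.63 to 0.72. It was lost with both adrenal-rich sham kidneys left out (0.60, adjusted p = 0.104), although it held with the adrenal steroid genes as a covariate (0.63, adjusted p = 0.0285). Sham kidneys 2 and 6 had the lowest Sema3g levels of their group, 19.9 and 17.4 CPM, against 21.4 to 29.2 in the other sham kidneys. The call was also lost with adipocyte genes as a covariate (0.60, adjusted p = 0.204), with erythroid genes (0.67, adjusted p = 0.0583) and with podocyte genes (0.50, adjusted p = 0.181), all by edgeR. The plot of Sema3g across all fits shows that the direction held in each.

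**Figure D1:**
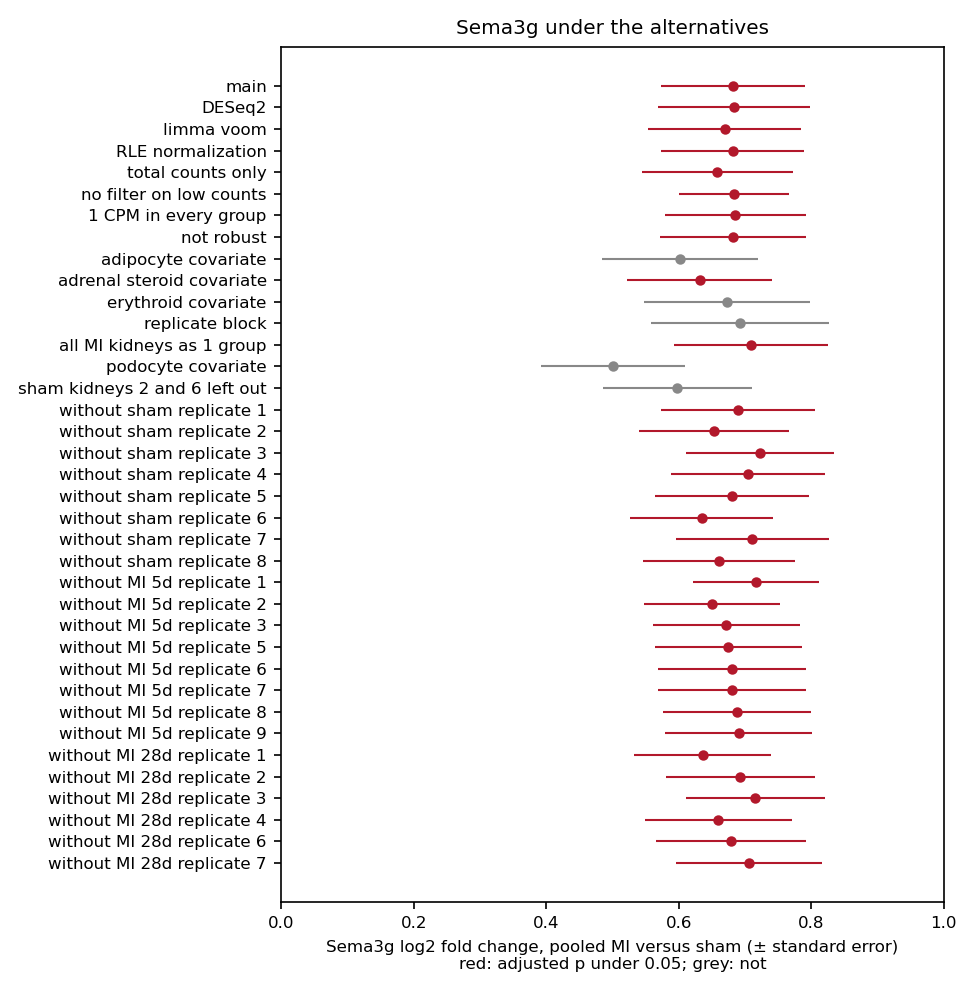
Sema3g in pooled MI against sham under every fit. The x axis is the log2 fold change with its standard error, each row is a fit, red marks an adjusted p under 0.05 and grey the 5 fits in which the call was lost, the 4 named above and the replicate block. All values are above 0, from 0.50 with the podocyte covariate to 0.72 without sham replicate 3.

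The sequence at the start of Sema3g is shown because this is the only DEG, and that of Slc30a1, the gene with the next lowest p among those higher after MI, is set beside it. Both are RefSeq promoters on GRCm38.p6, plus strand, 5′ to 3′, of 300 bases, at chr14:31217623-31217922 and chr1:191906531-191906830. Capitals mark GC boxes (GGGCGG) in Sema3g and metal response elements (TGCACNC or TGCGCNC) in Slc30a1, searched on both strands.
Sema3g: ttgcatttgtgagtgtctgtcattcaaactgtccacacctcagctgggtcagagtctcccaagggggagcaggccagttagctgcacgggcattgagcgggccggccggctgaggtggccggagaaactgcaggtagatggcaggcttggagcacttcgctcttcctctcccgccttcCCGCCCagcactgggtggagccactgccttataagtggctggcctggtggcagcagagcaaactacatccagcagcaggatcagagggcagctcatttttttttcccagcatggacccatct
Slc30a1: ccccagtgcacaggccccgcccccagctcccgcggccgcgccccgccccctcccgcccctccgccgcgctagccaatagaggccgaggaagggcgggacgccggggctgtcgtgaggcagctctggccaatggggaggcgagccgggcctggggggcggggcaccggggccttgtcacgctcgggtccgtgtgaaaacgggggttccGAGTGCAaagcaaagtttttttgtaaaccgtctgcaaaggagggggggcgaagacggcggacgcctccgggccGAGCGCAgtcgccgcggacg
The Sema3g window held 1 GC box and no metal response element. The Slc30a1 window held 2 metal response elements, neither of which overlapped any of its 5 GC boxes. Of all 32851 RefSeq promoters of this length, 35.7% hold a GC box and 25.7% a metal response element, so both are common and say nothing of use in these kidneys.

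Podocyte genes were mostly higher after MI as well. Of 13 podocyte genes tested, 11 were higher and 2 lower in the pooled comparison, with a median log2 fold change of 0.18 beside 0.00 over all tested genes. None was a DEG, and 2 had an unadjusted pooled p under 0.05, both higher. The median was 0.23 at 5d and 0.06 at 28d. With an unadjusted p under 0.05 (edgeR), 3 genes were higher at 5d and 1 at 28d, beside 3.92% and 4.45% of all tested genes. Only 1 of the 13 had such a p at both times. Wt1, a transcription factor of podocytes, had a log2 fold change of 0.38 ± 0.16 (SE, adjusted p = 0.562, edgeR). The summed CPM of the podocyte list was 226 to 271 in sham, 255 to 336 at 5d and 222 to 308 at 28d post-MI. In whole-kidney RNA, more cells of a type and more RNA per cell cannot be told apart.

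The other 9 genes of lowest p among those higher after MI did not pass edgeR's test. They include transporters of the tubule and vessels. Slc30a1, which encodes the zinc exporter ZnT1 and is known to be induced by zinc through metal response elements, had 51.8, 55.7 and 62.1 CPM in the lowest, median and highest sham kidney. Its values were 59.7, 68.1 and 82.2 CPM at 5d and 61.96, 66.7 and 76.8 CPM at 28d post-MI. The groups overlapped at their edges, with 11 of 14 MI kidneys above every sham kidney and all 14 above the sham mean. The pooled log2 fold change was 0.28 ± 0.06 (SE), with an adjusted p of 0.202 by edgeR and 0.0384 by DESeq2, and both times had the same value, 0.28. With the adipocyte covariate it was 0.31. The zinc-binding metallothioneins Mt1 and Mt2, also known targets of metal response elements and chosen here after their values were seen, had log2 fold changes of −0.08 ± 0.11 and −0.15 ± 0.18 (SE, edgeR adjusted p of 0.923 and 0.899).

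Slc2a1, which encodes the glucose transporter GLUT1, had 24.8, 34.5 and 39.6 CPM in the lowest, median and highest sham kidney, 35.6, 40.2 and 53.03 CPM at 5d and 39.6, 42.5 and 45.1 CPM at 28d post-MI. Of the MI kidneys, 11 of 14 were above every sham kidney. The log2 fold change was 0.32 ± 0.08 (SE, adjusted p = 0.204, edgeR). Slc2a1 was 1 of 10 hypoxia genes tested and the single one of them with an unadjusted p under 0.05, and 6 of the 10 were lower after MI. Fcgrt, which encodes the neonatal Fc receptor that recovers albumin and IgG, had 135 to 164 CPM in sham, 156 to 180 at 5d and 148 to 169 at 28d post-MI, with medians of 144, 172 and 164. Its log2 fold change was 0.17 ± 0.04 (SE, adjusted p = 0.204, edgeR).

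Among genes for secreted and surface proteins, Cck, which encodes the peptide hormone cholecystokinin, had 59.2, 83.3 and 94.9 CPM in the lowest, median and highest sham kidney. It had 73.7, 100.5 and 130 CPM at 5d and 109, 124 and 167 CPM at 28d post-MI, so that all 6 kidneys at 28d and 5 of 8 at 5d were above every sham kidney. Its log2 fold change was 0.48 ± 0.11 (SE), with an adjusted p of 0.204 by edgeR and 0.00794 by DESeq2. Slitrk6, a neuronal membrane protein gene, was low, at 1.13 to 3.54 CPM in sham, 2.1 to 5.63 at 5d and 2.38 to 8.24 at 28d. Its log2 fold change was 0.92 ± 0.23 (SE, adjusted p = 0.204, edgeR). Mme, which encodes the brush border peptidase neprilysin that degrades natriuretic peptides, had medians of 71.0 CPM in sham, 91.9 at 5d and 92.0 at 28d post-MI, and a log2 fold change of 0.26 ± 0.07 (SE, adjusted p = 0.257, edgeR). The remaining genes were Ugt3a1, a UDP-glycosyltransferase gene (0.20 ± 0.05), and the processed pseudogenes Gm13841 (0.90 ± 0.23) and Gm8337 (0.73 ± 0.20), at most 15.7 CPM and uncertain because their parent genes can share reads with them (log2 fold change ± SE).

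**Figure D2:**
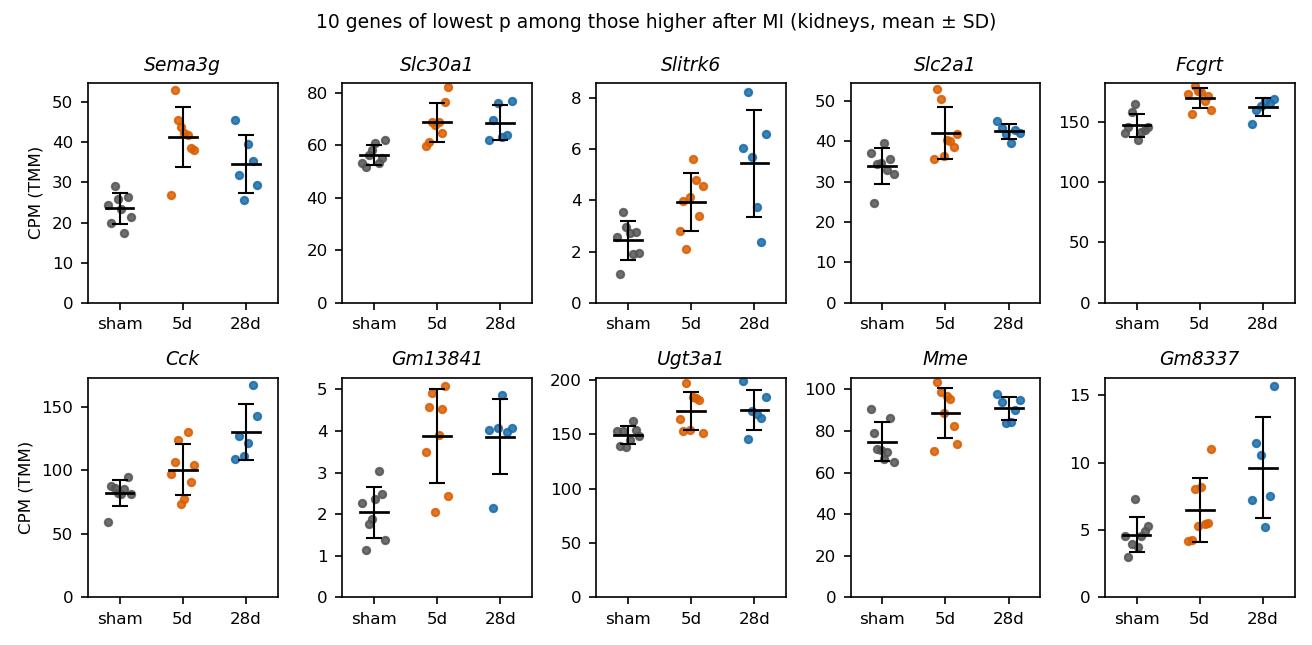
Levels in each kidney of the 10 genes of lowest p among those higher after MI. The y axis is CPM from 0, points are kidneys (8 sham, 8 at 5d and 6 at 28d post-MI), and lines are the mean ± SD. Sema3g is the only DEG, with 12 of 14 MI kidneys above every sham kidney, and in each gene at least 2 MI kidneys lie within the sham range.

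The 10 genes of lowest p among those lower after MI hold enzymes of the pentose phosphate pathway, of detoxification and of lipid handling, and none passed edgeR's test. Dhrs7 (ENSMUSG00000021094, chr12:72650353-72664909, minus strand), which encodes a short-chain dehydrogenase/reductase, came closest. It had 14.1, 19.5 and 27.2 CPM in the lowest, median and highest sham kidney, 7.92, 13.1 and 17.4 CPM at 5d and 8.97, 10.8 and 15.7 CPM at 28d post-MI. All 14 MI kidneys were below the sham mean and 10 of them below every sham kidney. The pooled log2 fold change was −0.70 ± 0.14 (SE), with an adjusted p of 0.0732 by edgeR and 0.00794 by DESeq2, and it was −0.61 at 5d and −0.79 at 28d. With adipocyte genes as a covariate the value was −0.46 ± 0.13 (SE, adjusted p = 0.694, edgeR).

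The pentose phosphate pathway makes NADPH, used for fatty acid synthesis and for reducing glutathione, and ribose. Of 7 genes tested, 6 were lower and 1 higher, and the median log2 fold change was −0.15, beside 0.00 over all genes. An unadjusted p under 0.05 was reached by 4, all lower, beside 4.18% lower over all tested genes (edgeR). Pgd, which encodes 6-phosphogluconate dehydrogenase, had 115, 145 and 181 CPM in the lowest, median and highest sham kidney, 94.9, 116 and 148 CPM at 5d and 112, 115 and 119 CPM at 28d. The log2 fold change came to −0.34 ± 0.07 (SE), with an adjusted p of 0.202 by edgeR and 0.0241 by DESeq2, and the same value, −0.34, at both times. Tkt, which encodes transketolase, had 125, 179 and 220 CPM in sham, 100.3, 135 and 165 CPM at 5d and 101, 121 and 146 CPM at 28d post-MI, in the same order. All 14 MI kidneys were below the sham mean of Tkt, and the log2 fold change was −0.52 ± 0.11 (SE), with an adjusted p of 0.204 by edgeR and 0.00456 by DESeq2. Taldo1 (transaldolase) and G6pdx (glucose-6-phosphate dehydrogenase, the first enzyme of the pathway) had −0.14 ± 0.05 and −0.23 ± 0.08 (SE, edgeR adjusted p of 0.446 and 0.478). With adipocyte genes as a covariate, Pgd had −0.26, Tkt −0.29, Taldo1 −0.07 and G6pdx −0.10.

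Fatty acid synthesis genes were lower as a group. All 13 genes of the lipogenesis list were lower in the pooled comparison and 12 of 13 at both times. Of the 13, 8 had an unadjusted p under 0.05 in the pooled comparison and 8 at both times, and none was a DEG. Over all tested genes, 4.18% were lower with such a p in the pooled comparison and 0.931% at both times (edgeR). The median log2 fold change was −0.73, −0.74 at 5d and −0.72 at 28d. Acly, the ATP citrate lyase that supplies cytosolic acetyl-CoA, had 101, 191 and 320 CPM in the lowest, median and highest sham kidney, 81.9, 107 and 178 CPM at 5d and 92.6, 117 and 163 CPM at 28d. The pooled log2 fold change was −0.73 ± 0.18 (SE, adjusted p = 0.28, edgeR). The mitochondrial citrate carrier gene Slc25a1 had −0.35 ± 0.09, the lipase gene Pnpla3 −1.55 ± 0.42 and the elongase gene Elovl6 −0.80 ± 0.22 (SE, edgeR adjusted p from 0.283 to 0.352). Each of these 4 genes was below the sham mean in all 14 MI kidneys, although the groups overlapped. With the 13 adipocyte genes as a covariate, the log2 fold changes were −0.40 for Acly, −0.21 for Slc25a1, −0.78 for Pnpla3 and −0.35 for Elovl6.

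Adipocyte genes were lower beside them. All 12 adipocyte genes tested were lower at both times, 7 with an unadjusted pooled p under 0.05 (edgeR), beside 4.18% lower over all tested genes. The median log2 fold change was −0.74, with −0.58 at 5d and −0.89 at 28d. Lipe, the hormone-sensitive lipase gene, had 23.6 to 73.2 CPM in sham, 12.6 to 45.0 at 5d and 20.1 to 27.6 at 28d post-MI, and a log2 fold change of −0.87 ± 0.22 (SE, adjusted p = 0.283, edgeR). Plin1, which coats the lipid droplet of fat cells, had −1.13 ± 0.35 (SE, adjusted p = 0.427, edgeR). With the adipocyte covariate these were −0.35 for Lipe and −0.31 for Plin1. Both genes are part of this covariate, so they were adjusted for themselves and smaller values were built in. The 6 brown adipocyte genes tested were also all lower, with a pooled median of −1.39. The median was −0.66 at 5d and −2.09 at 28d. At these times 2 and 6 of them were lower with an unadjusted p under 0.05, beside 3.97% and 4.23% of all tested genes (edgeR). Among the 6 was Kcnk3, a potassium channel gene, with −2.15 ± 0.55 (SE), an edgeR adjusted p of 0.294 and a DESeq2 adjusted p of 0.0239. Kcnk3 had 61.2 and 48.2 CPM in sham kidneys 2 and 6, which also had the highest adrenal steroid sums, against at most 18.6 CPM in the other 6 sham kidneys. Its log2 fold change was −1.07 (adjusted p = 0.806, edgeR) without these 2 kidneys, −1.21 with the adrenal steroid covariate and −1.32 with the adipocyte covariate. Summed brown adipocyte CPM was 77.4 to 474 in sham, 58.9 to 357 at 5d and 70.0 to 159 at 28d post-MI. With the adipocyte genes as a covariate, the median of the lipogenesis list was −0.21 and that of the brown adipocyte list −0.45. That of the adipocyte list, which makes up the covariate itself, was −0.04. With sham kidneys 2 and 6 left out, these medians were −0.69, −1.15 and −0.73.

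Fabp5, a fatty acid binding protein gene expressed in fat, skin and macrophages, had 4.99, 13.6 and 19.8 CPM in the lowest, median and highest sham kidney, 3.03, 6.56 and 10.5 CPM at 5d and 3.18, 6.68 and 8.45 CPM at 28d. The difference on the log2 scale was −0.97 ± 0.23 (SE), with an adjusted p of 0.204 by edgeR and 0.0224 by DESeq2, and −0.47 with the adipocyte covariate. Phlda3, a p53 target that restrains Akt, had −0.73 ± 0.18 (SE, adjusted p = 0.257, edgeR), and −0.34 with the covariate. The lowest adipocyte sum of the sham group was that of sham kidney 8, at 632 CPM. With this kidney left out, edgeR called 20 genes, 3 higher and 17 lower. Among the lower were Fabp5, Dhrs7, Pgd, Tkt, Phlda3, Pnpla3, Aldh1a7 and Gstp1, and among the higher Sema3g and Slc30a1. Sham kidney 8 also stood apart in circadian clock genes, with 19.4 CPM of Nr1d1 (other sham kidneys 37.8 to 62.3) and 33.8 CPM of Per2 (7.37 to 22.3). Nr1d1 was also low in 5d kidneys 7 to 9 (19.3, 18.2 and 7.03 CPM) and 28d kidneys 2, 3 and 7 (2.51, 4.47 and 11.9 CPM). Which trait of sham kidney 8 went with the count of 20 was not tested.

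Enzymes of detoxification were represented by Aldh1a7 and Gstp1. Aldh1a7, an aldehyde dehydrogenase gene, had 13.5, 19.9 and 25.9 CPM in the lowest, median and highest sham kidney, 11.5, 13.6 and 19.2 CPM at 5d and 7.52, 11.9 and 14.6 CPM at 28d. With both times pooled, the log2 fold change was −0.56 ± 0.13 (SE), with an adjusted p of 0.202 by edgeR and 0.0489 by DESeq2, and it was −0.56 with the adipocyte covariate. Gstp1, a glutathione S-transferase gene, had 95.8 to 141 CPM in sham, 84.9 to 109.9 at 5d and 81.2 to 100.2 at 28d. This gave a log2 fold change of −0.27 ± 0.06 (SE, adjusted p = 0.202, edgeR), −0.26 with the covariate, and 11 of 14 MI kidneys were below every sham kidney. Both genes have near-identical paralogs, Aldh1a1 and Gstp2, so their counts are uncertain. Of 13 NRF2 target genes tested, 10 were lower and 2 of these had an unadjusted p under 0.05, beside 4.18% lower over all tested genes. They were Gstm1 (−0.22 ± 0.10) and Gsta2 (−0.35 ± 0.16), both glutathione S-transferase genes. Of the 3 higher ones, 1 had an unadjusted p under 0.05, beside 3.65% higher over all tested genes. This was Osgin1, an oxidative stress-induced growth inhibitor gene, with 0.42 ± 0.17 (SE, adjusted p = 0.561, edgeR).

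Rtp4, a receptor transporter gene induced by interferon, had 5.12, 7.86 and 13.9 CPM in the lowest, median and highest sham kidney, 3.35, 4.22 and 6.63 CPM at 5d and 3.25, 5.86 and 8.45 CPM at 28d. The log2 fold change came to −0.74 ± 0.17 (SE, adjusted p = 0.204, edgeR). Of 14 interferon-stimulated genes tested, 13 were lower, 11 of them at both times by sign, and the median log2 fold change was −0.22. It was −0.33 at 5d and −0.09 at 28d. With an unadjusted p under 0.05 (edgeR), 7 were lower at 5d and 3 at 28d, beside 3.97% and 4.23% of all tested genes. Of the 14, 3 were lower with such a p at both times. The 4 with an unadjusted pooled p under 0.05 were Rtp4, Ifit1 (−0.67 ± 0.20), Ifi27 (−0.52 ± 0.15) and Bst2 (−0.23 ± 0.09). They encode antiviral or interferon-induced membrane proteins, and none passed edgeR's test (adjusted p from 0.204 to 0.543). With the adipocyte covariate the median of the list was −0.13, and Ifi27 had −0.19.

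The other 3 genes of lowest p lower after MI were regulators and a lipase. Fosl2, which encodes a subunit of the AP-1 transcription factor, had medians of 17.6 CPM in sham, 11.5 at 5d and 12.9 at 28d post-MI and a log2 fold change of −0.55 ± 0.13. Kdm4a, a histone demethylase gene, had medians of 31.6, 25.9 and 25.5 CPM and a log2 fold change of −0.29 ± 0.07. Abhd12, a lysophosphatidylserine lipase gene, had medians of 41.9, 34.7 and 33.8 CPM and a log2 fold change of −0.28 ± 0.07. Each had an adjusted p of 0.204 by edgeR and 8 or 9 of 14 MI kidneys below every sham kidney.

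**Figure D3:**
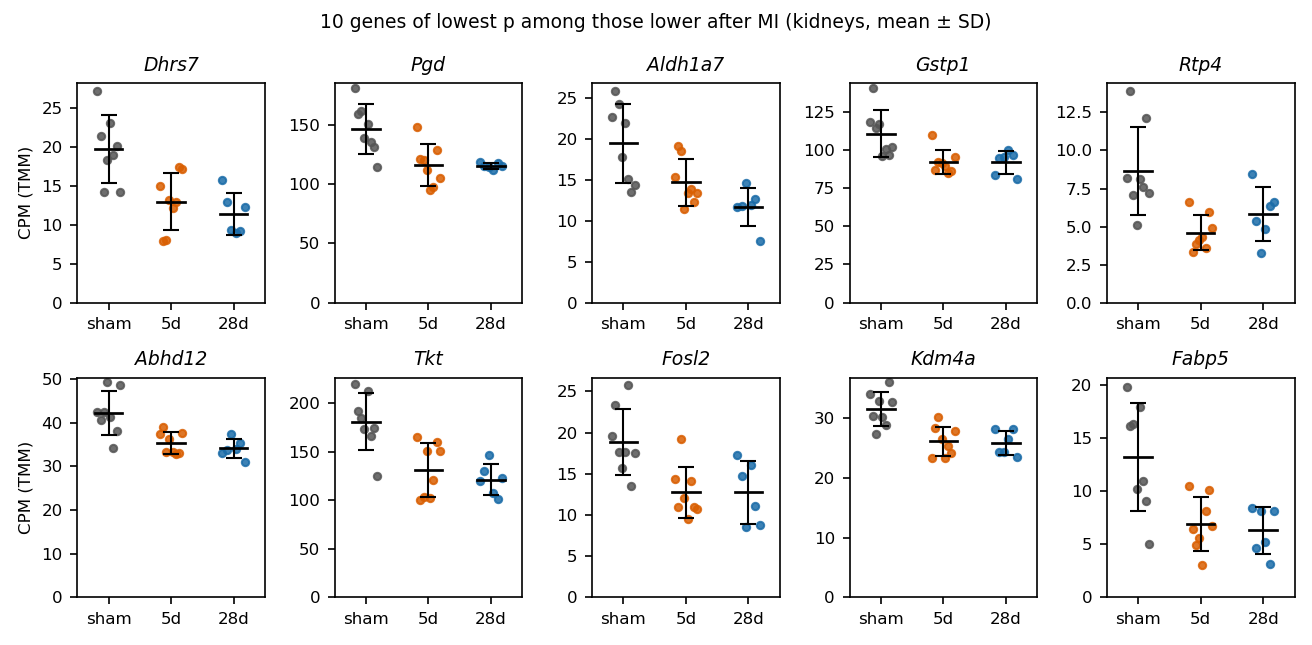
Levels in each kidney of the 10 genes of lowest p among those lower after MI. The y axis is CPM from 0, points are kidneys (8 sham, 8 at 5d and 6 at 28d post-MI), and lines are the mean ± SD. None was a DEG, and in each gene at least 3 MI kidneys lie within the sham range.

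Across these 20 genes, log2 fold changes were between 0.17 and 0.97 in size. All 20 had the same direction at both times, and 19 had an unadjusted p under 0.05 at both, the exception being Gm8337. None was called as different between 28d and 5d post-MI (edgeR, lowest adjusted p = 0.325). Even so, Cck had 0.30 at 5d and 0.66 at 28d (unadjusted p = 0.00927, edgeR). Aldh1a7 had −0.38 and −0.73 (unadjusted p = 0.0477, edgeR). The MI kidneys were all above the sham mean in 5 of the 10 higher genes and all below it in 8 of the 10 lower genes. The genes were chosen by the pooled p, which uses both times, so that these counts describe the selection.

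**Figure D4:**
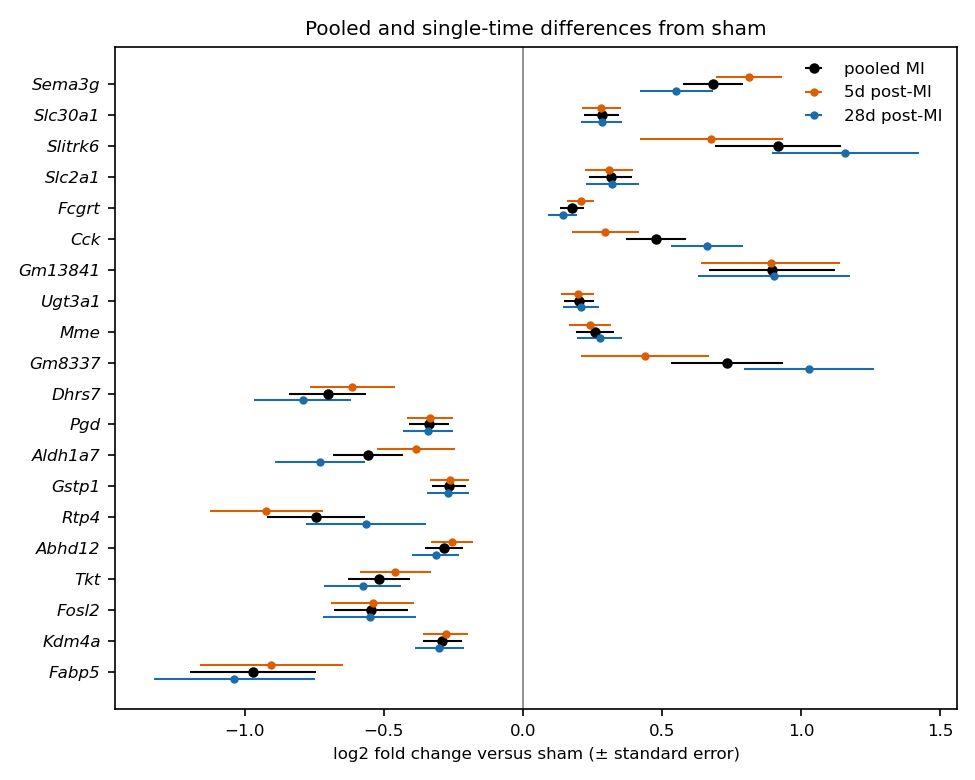
Log2 fold changes against sham of the 10 higher and 10 lower genes of lowest pooled p. The x axis is the log2 fold change with its standard error, black points are pooled MI, orange 5d and blue 28d post-MI. Both times lie on the same side of 0 in all 20 genes, from −0.97 for Fabp5 to 0.92 for Slitrk6 in the pooled comparison.

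Tubule markers differed little. Of 12 proximal tubule genes tested, 9 were higher. Beside 3.65% of all tested genes, 4 of them were higher with an unadjusted p under 0.05 (edgeR). These were the water channel gene Aqp1 (0.26 ± 0.08), the endocytic receptor gene Cubn (0.14 ± 0.05), the transcription factor gene Hnf4a (0.14 ± 0.05) and the fatty acid transporter gene Slc27a2 (0.13 ± 0.06, log2 fold change ± SE, edgeR adjusted p from 0.427 to 0.628). Of 8 thick ascending limb genes, 7 were higher and 3 of these had an unadjusted p under 0.05, beside the same 3.65% of all tested genes. They were Egf (0.19 ± 0.05, above the sham mean in all 14 MI kidneys), the potassium channel gene Kcnj1 (0.25 ± 0.08) and Umod, which encodes uromodulin (0.17 ± 0.07). Lists of the distal tubule and principal cell (11 genes) and the intercalated cell (8 genes) had no gene with an unadjusted p under 0.05. In the tubular injury list this was also so for all 6 genes tested.

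Fibrosis genes were mostly lower. Of 15 tested, 12 were lower in the pooled comparison, 5 with an unadjusted p under 0.05, and the median log2 fold change was −0.19. It was −0.26 at 5d and −0.22 at 28d, and 11 genes were lower at both times. With an unadjusted p under 0.05 (edgeR), 7 were lower and 1 higher at 5d, and 2 were lower at 28d. The shares lower over all tested genes were 3.97% and 4.23%. Just 1 of the 15 was lower with such a p at both times. Col5a3, a minor fibrillar collagen chain gene, had 4.85, 9.06 and 14.6 CPM in the lowest, median and highest sham kidney, 2.17, 3.94 and 6.76 CPM at 5d and 4.65, 6.43 and 8.23 CPM at 28d post-MI, with a log2 fold change of −0.69 ± 0.18 (SE, adjusted p = 0.257, edgeR) and −0.39 with the adipocyte covariate. Acta2, which encodes smooth muscle actin, had −0.29 ± 0.09 (SE, adjusted p = 0.427, edgeR). The basement membrane collagen gene Col4a1 had −0.14 ± 0.06, and Col5a1 −0.36 ± 0.16.

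No gene of the hormone lists was a DEG of the pooled comparison. Of 10 renin-angiotensin genes tested, 3 were higher and 1 lower with an unadjusted pooled p under 0.05 (edgeR). The shares over all tested genes were 3.65% and 4.18%. With such a p, 5 were higher and 1 lower at 5d, and 2 were higher and 3 lower at 28d. Their median log2 fold change was 0.08 at 5d and −0.06 at 28d, and 2 of the 10 were called lower at 28d than at 5d. Agtr1a, the main angiotensin II receptor gene, had −0.23 ± 0.08 (SE) with 13 of 14 MI kidneys below the sham mean, and the angiotensin-converting enzyme gene Ace had 0.13 ± 0.06 (SE). The soluble guanylate cyclase subunit genes Gucy1b1 and Gucy1a1, which act downstream of nitric oxide, had −0.47 ± 0.18 and −0.24 ± 0.12 (SE). The adjusted p-values of these 4 genes were between 0.461 and 0.633 (edgeR). The endothelial cadherin gene Cdh5 had −0.27 ± 0.09 (SE, adjusted p = 0.434, edgeR) and was below the sham mean in all 14 MI kidneys. It was the single one of 13 endothelial genes with an unadjusted pooled p under 0.05. Of the 13, 9 were lower and 4 higher, with a median of −0.03, −0.12 at 5d and 0.05 at 28d.

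Several groups differed between the 2 times, and their pooled value described neither. Between 28d and 5d post-MI, a contrast that uses no sham kidney, 53 genes (0.415%) were called, 43 higher (0.336%) and 10 lower (0.0782%) at 28d. All 5 haemoglobin genes were among those lower at 28d, and their pooled median of 0.61 joined 1.51 at 5d and −0.29 at 28d. Against sham, all 5 had an unadjusted p under 0.05 at 5d and 0 of 5 at 28d. Hba-a1 had 581 to 985 CPM in sham, 1286 to 4758 at 5d and 439 to 1228 at 28d post-MI. Of 14 immediate early genes, which are induced within minutes of a stimulus, 10 were higher at 28d than at 5d, and their pooled median of −0.39 joined −1.32 at 5d and 0.41 at 28d. Against sham, 11 were lower and 1 higher with an unadjusted p under 0.05 at 5d, and 4 were higher at 28d. Over all tested genes, the shares with such a p were 3.97% lower and 3.92% higher at 5d, and 4.45% higher at 28d (edgeR). The stress-induced cytokine gene Gdf15 had a pooled log2 fold change of 0.07 ± 0.19 (SE, adjusted p = 0.967, edgeR), with −0.66 at 5d and 0.79 at 28d. The matricellular gene Ccn1 had −0.36 ± 0.18 (SE, adjusted p = 0.645, edgeR), with −1.16 at 5d and 0.43 at 28d.

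**Figure D5:**
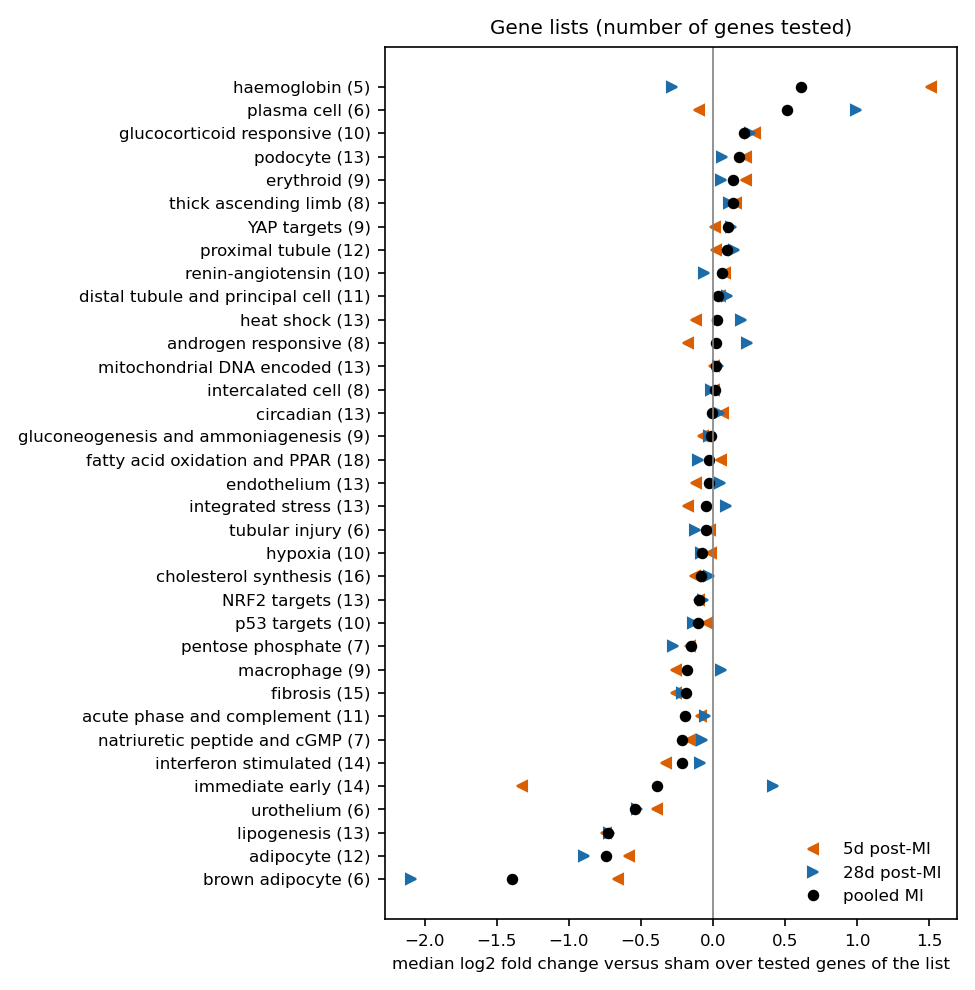
Median log2 fold change against sham of the 35 gene lists with at least 3 tested genes. The x axis is the median over the list's tested genes, with the number tested in parentheses, and black circles are pooled MI, orange left triangles 5d and blue right triangles 28d post-MI. Lipogenesis, adipocyte and brown adipocyte lists lie lowest, at −0.73, −0.74 and −1.39, and haemoglobin and immediate early lists have their 5d and 28d medians on opposite sides of 0.

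Over all 39 lists, 37 had a tested gene and none held a DEG of the pooled comparison. The lists of T and B lymphocytes and of natural killer cells and neutrophils had no gene above the count filter. The median was beyond 0.5 in size in 7 lists, those of haemoglobin, plasma cell, lipogenesis, adipocyte, brown adipocyte, adrenal steroid and urothelium genes. Most of these mark blood, fat, the adrenal gland or the urinary tract lining. The pooled plasma cell median of 0.52 joined −0.10 at 5d and 0.99 at 28d, so it described neither time. The 2 adrenal steroid genes tested had a median of −1.01, and 0.21 with sham kidneys 2 and 6 left out.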

How the data were processed

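Kidney RNA was sequenced by MACE with unique molecular identifiers. Per the authors, Cutadapt trimmed the reads, which were then mapped to the mouse genome, and HTSeq counted them per gene. The paper names mm10 and the submitters' processing notes name mm39 with Bowtie2, so the build is unsettled, while the annotation and strand setting are not given in the sources used here. The authors deposited raw counts (whole numbers) for 56941 genes. Of its 48 value columns, 22 were used. The other 26 were 24 columns of values the authors named tpm and 2 count columns that share a name. GENCODE M21 gave symbols for 51948 of these genes.

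Total counts per kidney were 2280618 to 3786275. A count of 0 allows up to 3 counts, for counting error only. The 71 pairs of kidneys within groups differed beyond counting noise (chi-squared per degree of freedom 1.73 to 7.85), and none was counted as a repeat.

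Genes were kept by filterByExpr with a minimum count of 10 (12780 of 30116 with a count), scaled by TMM and tested with edgeR's quasi-likelihood F test in its robust form (edgeR 4.0.16, limma 3.58.1, DESeq2 1.42.0, R 4.3.3) over the 3 groups. The contrasts were the mean of 5d and 28d post-MI against sham, each time against sham, and 28d against 5d, two-sided, with Benjamini-Hochberg adjustment over all tested genes. The test of both times takes the larger of the 2 p-values where the signs agree. The standard error of a log2 fold change is its size over the square root of F. The functions were tested on simulated data. Gene lists were described by counts and medians, with no test. Figures were drawn with matplotlib in Python.

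Named genes are the DEGs, up to 10 genes of lowest p in each direction, up to 4 genes of lowest p in each list and kidney genes that the paper names. Some of these genes are not reported here. Genes and lists were chosen with earlier results of these data known. The alternatives were DESeq2, limma's voom, other scalings and filters, tissue covariates, a replicate block and leaving out each kidney. The podocyte covariate and the fit without sham kidneys 2 and 6 were chosen after seeing the data. Same-numbered kidneys of different groups did not vary together (0 of 18 pairs with a correlation over 0.1, from −0.127 to 0.0899), so the numbers do not pair the mice.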

Additional observations from a re-analysis of the deposited data

Results flagged for a closer look

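Of the 99 genes reported here or held to the same rule, 13 differed between 28d and 5d post-MI (edgeR, adjusted p under 0.05), so that a pooled value does not describe both times. The log2 difference of 28d minus 5d was −1.78 for Hba-a1, −1.80 for Hba-a2, −1.72 for Hba-ps3, −1.75 for Hbb-bs and −1.88 for Hbb-bt. It was 1.998 for Nr4a1 and 1.95 for Junb, both immediate early genes, 1.59 for Ccn1, 0.45 for Atf4, the transcription factor of the integrated stress response, 1.45 for Gdf15 and 0.91 for Osgin1. For the plasma cell genes Igkc and Jchain it was 1.78 and 2.02.

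In 22 of 297 groups of kidneys, 1 kidney stood apart from the rest by Dixon's test, where chance flags about 1 in 20 groups. Among the genes of lowest pooled p these were Cck in sham kidney 1 (59.2 CPM, others 80.9 to 94.9), Gm13841 in 28d kidney 2 (2.15 CPM, others 3.97 to 4.86) and Gstp1 in 5d kidney 1 (109.9 CPM, others 84.9 to 95.6). Low values in sham were those of Hba-a1 (581 CPM) and Hbb-bt (217 CPM) in kidney 4 and of Insig1 (33.3 CPM) in kidney 8. High values in sham were those of Slc25a37 in kidney 8 (54.1 CPM), Atf4 in kidney 6 (148 CPM), and G6pdx (36.9 CPM) and Orm1 (19.98 CPM) in kidney 5. At 5d post-MI, Fosb (5.58 CPM) and Gdf15 (24.1 CPM) were high in kidney 1, Kcnj1 was high (151 CPM) and Ace low (105 CPM) in kidney 2, Akr1b7 was high in kidney 5 (14.7 CPM), and in kidney 9 Atf4 was high (150.9 CPM) and Ifit1 low (2.44 CPM). At 28d post-MI, Hbb-bs (2153 CPM) and Hbb-bt (622 CPM) were high in kidney 2, Agtr1a (34.02 CPM) and Gdf15 (54.6 CPM) in kidney 4 and Aoc3 (14.4 CPM) in kidney 7.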

How the results depend on the processing

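The count of 1 DEG of pooled MI against sham was 14 with DESeq2, 2 with total counts only, 82 with no filter on low counts (23 higher and 59 lower, of 30116 genes), 0 with the adipocyte, erythroid or podocyte covariate, 0 with sham kidneys 2 and 6 left out and 3 with the replicate block. Unadjusted p-values under 0.05 numbered 691, 809, 1089 and 754 in the 4 fits without a DEG (edgeR, in this order). The genes called with the replicate block were Dhrs7, Pgd and Aldh1a7, and Sema3g had 0.69 (adjusted p = 0.118, edgeR) there. Leaving out 1 kidney gave 1 to 20 DEGs, with 20 without sham kidney 8, 6 without 5d kidney 1, 2 without sham kidney 3, without 5d kidneys 8 and 9 or without 28d kidney 1, and 1 otherwise. The count of genes changed at both times stayed 0 in every fit that could test it except with no filter on low counts, where it was 6 (Sema3g, Dhrs7, Pgd, Fabp5, Cavin1 and Slc25a1, of which Cavin1 was named after seeing the data). The 203 genes at both times without adjustment were 468 with no filter and 47 with the erythroid covariate, and 170 to 295 with 1 kidney left out. No pooled DEG differed between 28d and 5d, and 5 did so with no filter. All 20 genes of lowest p kept their direction in every fit. The pooled value of Gdf15 ranged from −0.029 to 0.199 with 1 kidney left out and was below 0 without sham kidney 4, 5d kidney 1 or 28d kidney 4, that of Akr1b7, an adrenal gene, turned to 0.31 without sham kidneys 2 and 6, and that of Hadha to 0.0076 with the adipocyte covariate. Apart from the fits with fewer kidneys or more genes, the cause was not tested. At 2280618 to 3786275 counts per kidney, genes of a few CPM rest on few reads, and 17336 genes with a count were too low to test.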
